A study of Mus musculus with 12 samples.

Results

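The genes described here are 36 proliferation genes whose transcripts or proteins mark cells in S phase or M phase, out of 18193 genes that the array's platform table names. They were taken by symbol, as the probe sets whose only gene symbol is that of a member, and fell into 15 genes of S phase and 21 genes of M phase. RNA came from side population cells of mouse muscle, the small fraction of dissociated cells that exports the Hoechst dye. Of the preparations, isolated independently, 6 came from extraocular muscle (EOM), the muscles around the eye, and 6 from the tibialis anterior (TA), a muscle of the lower leg, each amplified and hybridized to its own Affymetrix array. No transgene, treatment or time course is named for either group, and strain, age, sex and the number of mice per preparation are not given in the sources used here. The comparison addresses how side population cells of an eye muscle differ from those of a limb muscle, here in the genes that a dividing cell uses.

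Cells copy their DNA in S phase and separate the copies in M phase. Before S phase, cyclin E with its kinase and the E2F transcription factors switch on the replication genes, and Cdc6 loads the Mcm helicase onto origins. The sliding clamp Pcna, the ribonucleotide reductase subunits Rrm1 and Rrm2, and thymidylate synthase (Tyms) then serve DNA synthesis. Later, cyclins A and B with Cdk1, the Aurora and Polo-like kinases, kinesin motors, centromere proteins and the spindle checkpoint drive mitosis. Side population cells of adult tissues, like the resting stem cells of muscle, are known as mostly quiescent, a state in which these genes are held low, in part by repressor complexes bound to E2F and CHR elements in their promoters.

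The promoters of both classes are shown because these elements set when in the cycle each class is read. Windows of 300 bases, from 250 before to 50 after the transcription start, were found in the RefSeq table (GRCm38.p6) for 12 S phase genes, with 13 windows, and for 17 M phase genes. Both strands were searched. An E2F match was TTCCCGC, its close variant TTCGCGC, the further variant TTGCCGC or the fourth form TTGGCGC. A CHR match was TTTGAA or the related TTCGAA, and the remaining searches were CCAAT for the CCAAT box and TATAAA for the TATA box. A CCAAT match on the opposite strand can share bases with TTGGCGC, and TTCGAA reads alike on both strands. E2F letters were in 8 of 13 S phase windows (61.5%) and 3 of 17 M phase windows (17.6%), against 9.57% of all 32851 windows. CHR letters were in 2 S phase windows (15.4%) and 13 M phase windows (76.5%), against 19.2% of all. CCAAT letters were in 9 S phase windows (69.2%) and 15 M phase windows (88.2%), against 37.4%, and TATA letters were in 0 of either class, against 13.6%. The classes thus differed in the letters of their promoters, as a description of sequence and not of binding in these cells.

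The 150 bases before the start are printed for 3 S phase genes: Mcm3, the 1 member past the test, its partner subunit Mcm6, and the loader Cdc6. They lie at chr1:20820313-20820462 and chr1:128359706-128359855 on the minus strand and at chr11:98908001-98908150 on the plus strand (GRCm38.p6, RefSeq). Each is written 5′ to 3′ on the gene's strand, with E2F and CCAAT letters in capitals on either strand.
Mcm3: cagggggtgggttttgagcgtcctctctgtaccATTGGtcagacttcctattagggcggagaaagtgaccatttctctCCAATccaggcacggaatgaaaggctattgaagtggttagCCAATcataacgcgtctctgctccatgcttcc
Mcm6: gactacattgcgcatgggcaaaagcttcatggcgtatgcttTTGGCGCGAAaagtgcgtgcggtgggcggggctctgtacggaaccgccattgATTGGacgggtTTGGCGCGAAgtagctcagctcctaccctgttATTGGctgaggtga
Cdc6: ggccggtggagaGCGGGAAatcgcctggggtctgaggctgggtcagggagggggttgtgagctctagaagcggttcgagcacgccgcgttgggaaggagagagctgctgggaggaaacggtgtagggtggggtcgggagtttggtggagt
Mcm6 held paired E2F letters at 2 places, Cdc6 held 1 match and no CCAAT letters, and Mcm3 held 3 CCAAT matches. The E2F letters of Mcm3 began at bases 20, 40 and 43 after the start, downstream of the stretch shown.

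Those of 3 M phase genes follow, for the centromere histone Cenpa, the topoisomerase Top2a and the checkpoint target Cdc20. They lie at chr5:30666736-30666885 on the plus strand, and at chr11:99024190-99024339 and chr4:118437344-118437493 on the minus strand (GRCm38.p6, RefSeq). Capitals mark CHR and CCAAT letters on either strand.
Cenpa: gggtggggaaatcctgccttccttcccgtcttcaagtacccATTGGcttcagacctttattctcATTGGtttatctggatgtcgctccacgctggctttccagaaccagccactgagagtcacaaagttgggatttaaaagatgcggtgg
Top2a: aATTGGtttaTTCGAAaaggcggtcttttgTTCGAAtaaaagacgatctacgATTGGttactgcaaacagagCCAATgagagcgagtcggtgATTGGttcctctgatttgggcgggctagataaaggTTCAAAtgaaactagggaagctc
Cdc20: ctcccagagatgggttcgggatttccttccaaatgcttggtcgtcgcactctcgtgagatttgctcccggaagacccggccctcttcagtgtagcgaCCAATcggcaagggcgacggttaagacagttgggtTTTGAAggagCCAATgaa
Top2a held 3 CHR and 4 CCAAT matches in this stretch, and Cdc20 held 1 CHR between 2 CCAAT matches. In Cenpa the CHR letters began at base 17 after the start, outside the stretch. No window of the table was matched for Mcm4, Ccne2, Gins2, Ccna2, Aurkb, Kif20a and Tpx2, and the windows of Ccne1, E2f1, Tyms, Birc5 and Nusap1 held none of the letters searched.

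As a class, the proliferation genes did not separate the 2 muscles. Of 36 members, 35 had a probe set of their own, Ccnb1 was not analysed here, and 27 passed the filter on low signal, 14 of S phase and 13 of M phase. Mcm3 was lower in EOM past the test (limma, Benjamini-Hochberg adjusted p under 0.05) and no member was higher. That is 1 of 27 lower (3.70%), where 6.81% of all 13067 tested genes were lower and 4.05% higher in EOM, so the members' share was near the background. Their median log2 fold change was -0.054, against -0.038 over all tested genes. The median was 0.15 for S phase, with 9 values above 0 and 5 below (35.7%). For M phase it was -0.20, with 3 above and 10 below (76.9%), where 53.1% of all tested genes were below 0. Log2 fold changes are EOM minus TA of log2(signal + 16), a scale that understates the change of genes with low signal. The plot of fold changes shows the spread of both classes around 0.

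**Figure D1:**
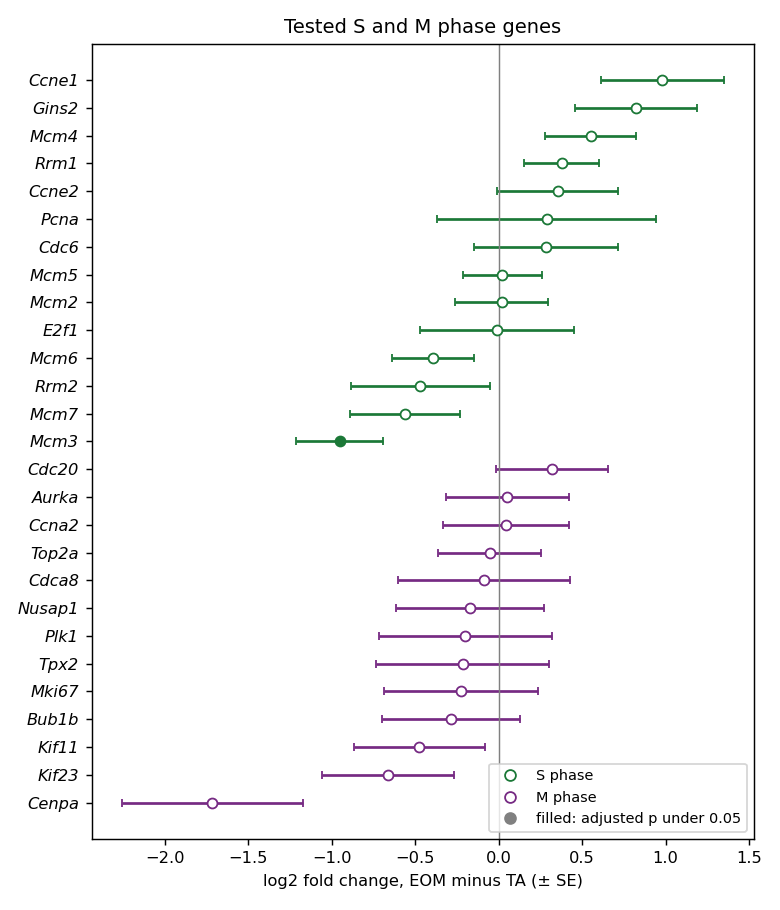
Log2 fold change (EOM minus TA, x axis) of the 27 tested genes, ordered within S phase (green) and M phase (purple), with bars of 1 standard error. Mcm3 at -0.95 is the only filled point, past an adjusted p of 0.05, and Cenpa at -1.72 lies farthest from 0.

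The array design limited how small a difference could be seen. Of the 27 members, 20 had a log2 fold change under 0.5 in size and 1 reached 1 in size, and 4 had an unadjusted p under 0.05 (14.8%), against 23.6% of all tested genes. The 95% interval lay within 1 of 0 for 8 members, 5 of S phase and 3 of M phase. For the other 19 a difference of 1 on this scale in at least 1 direction lay inside the interval. With the added constant, 1 on this scale is more than a 2-fold change of signal for genes with low signal. The 8 intervals thus do not exclude a 2-fold change for such genes. They are of 1 probe set per gene. Among the 8, a further tested probe set of Mcm2, Mcm6, Ccna2 and Top2a had an interval reaching beyond 1 in size. In bulk RNA, fewer cells of a type and less RNA per cell cannot be told apart.

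Median signal was 31.1 to 43.4 on 9 arrays and 87.2 on EOM 1, 69.5 on TA 3 and 63.1 on TA 5. In these 3 arrays beta-actin signal was also the most skewed to its 3' end, a possible sign of shortened RNA, with a 3' to 5' ratio of 100 to 165, against 5.27 to 68.6 on the others. The same ratio for Gapdh did not set them apart as a group, with EOM 1 at 9.88, TA 3 at 17.3, TA 5 at 34.5 and the others between 4.92 and 24.5. Among the marker lists, 13 of 15 endothelial genes, 7 of 10 pericyte and smooth muscle genes and 11 of 13 tested leukocyte genes were lower in EOM, and 5 of 10 fibroblast genes were higher. Summed signal ran from 2152 to 3677 in EOM and from 14234 to 43930 in TA for the endothelial list. It ran from 6190 to 10772 against 20505 to 34328 for pericyte and smooth muscle, from 535 to 4685 against 5110 to 13590 for leukocytes, and from 124806 to 171162 against 72955 to 127756 for fibroblasts. Of the 6 myogenic and 2 erythroid markers tested 0 passed with limma, with 1 myogenic and 0 erythroid at an unadjusted p under 0.05. All 6 myogenic values were below 0, as were 53.1% of all tested genes. The satellite cell factor Pax7 was under the filter, at 2.2 to 11 in EOM and 19.8 to 108.2 in TA. With no level filter, where 6.65% of all genes passed, Pax7 was at -1.47 (limma adjusted p = 0.0260). Its further probe set was at -0.83 there (limma adjusted p = 0.514). Of the 3 dye pumps 2 were lower in EOM, among them Abcg2, the pump that defines many side populations, at 100.3 to 1014 against 1705 to 3461. The part of these cell type markers in any result below was not tested. For the arrays and the beta-actin ratio, values without the 3 arrays and with that ratio as a covariate are given where they change a call.

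The helicase that unwinds DNA at the fork is a ring of Mcm proteins, and its subunits did not move as a block. Mcm3 had a signal of 71.1 at the lowest, 87.2 at the median and 112.3 at the highest on the EOM arrays, and of 135.4, 180.1 and 327.6 on the TA arrays. Every EOM array was below every TA array, which 4.80% of all tested genes also showed. Group means were 90.9 ± 17.2 for EOM and 197 ± 70.5 for TA (SD, n = 6), and the log2 fold change was -0.95 ± 0.26 (SE, limma adjusted p = 0.0284). The lowest TA array was TA 3 and the highest was TA 5, both arrays of high median signal. Without EOM 1, TA 3 and TA 5 the signals were 76.9 to 112.3 against 142.6 to 217.3, and the fold change was -0.82 (limma adjusted p = 0.0131). In that fit 21.8% of all tested genes passed.

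The Mcm3 call was close to the threshold and rested on 1 of its probe sets. It was lost with quantile normalization (-0.91, limma adjusted p = 0.105), median centring (-0.86, limma adjusted p = 0.181) and no level filter (-0.95, limma adjusted p = 0.0567). The call held in 6 of the 12 fits that left out 1 array and was lost without EOM 2 (limma adjusted p = 0.0744), EOM 5 (0.0540), EOM 6 (0.0628), TA 1 (0.0557), TA 5 (0.0649) or TA 6 (0.0586), with fold changes of -0.96 to -0.80. The array carries 5 Mcm3 probe sets, of which 3 passed the filter. The probe set 1449705_x_at had a log2 fold change of -0.65 (limma adjusted p = 0.394), with 42.6 to 150.6 in EOM and 25.3 to 208.6 in TA, and 1426653_at one of 0.061 (limma adjusted p = 0.975). Suffixes _s and _x mark probe sets whose probes can match more than 1 transcript, so the called probe set, 1420028_s_at, may not measure Mcm3 alone. With the mean of the tested probe sets in place of the brightest, the fold change was -0.51 (limma adjusted p = 0.387).

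**Figure D2:**
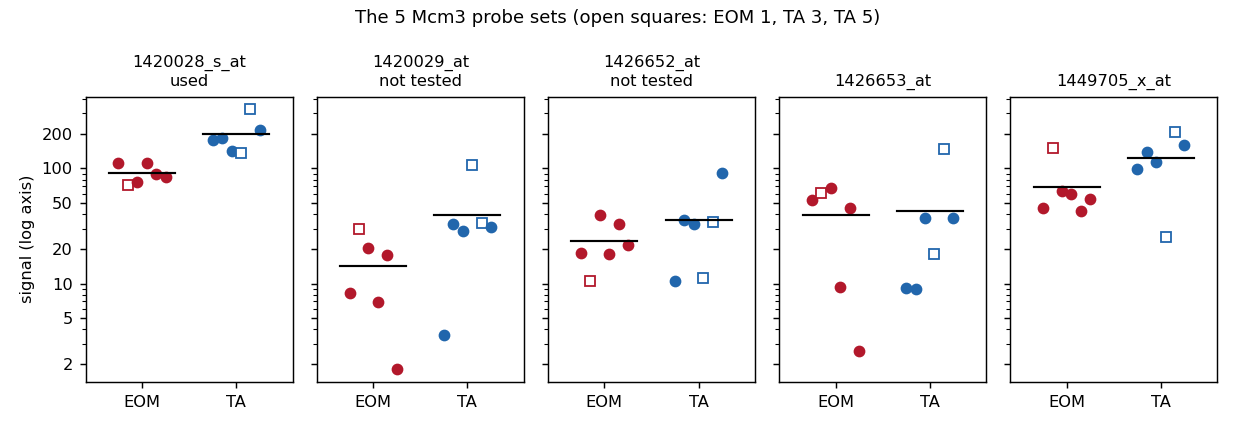
Signal (log axis) of the 5 Mcm3 probe sets on the 6 EOM (red) and 6 TA (blue) arrays, with the group mean as a bar and open squares for EOM 1, TA 3 and TA 5. The groups separate only in 1420028_s_at, and the other sets overlap.

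The other helicase subunits gave values on both sides of 0. Mcm4 had 1500 at the lowest, 1683 at the median and 1763 at the highest in EOM, and 570.3, 1180 and 2190 in TA. Its EOM arrays were tightly grouped, and 5 of the 6 TA arrays were below all of them while TA 3 was above, giving 0.55 ± 0.27 (SE, limma adjusted p = 0.278). These values are of 1436708_x_at. The further tested Mcm4 probe set, 1416214_at, was at 0.38 (limma adjusted p = 0.556), with 148.7 to 508.5 in EOM and 154.8 to 383.4 in TA. Mcm5 (0.021, adjusted p = 0.982) and Mcm2 (0.019, adjusted p = 0.986) had nearly equal means. Mcm6 was at -0.39 (adjusted p = 0.429) and Mcm7 at -0.56 (adjusted p = 0.386), and neither passed. For Mcm2, Mcm6 and Mcm7, as for Mcm3, tested probe sets differed in sign, with -0.29 to 0.019 for Mcm2, -0.39 to 0.16 for Mcm6 and -0.56 to 0.29 for Mcm7. Of the 13 members with several tested probe sets, 7 had one sign throughout and 6 had both, the remaining pair being Cdc20 and Tpx2.

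Among the genes that license and start replication, most values lay above 0 and none passed in the fit of all 12 arrays without weights or covariates. Cyclin E1 (Ccne1), the partner of Cdk2 at the entry to S phase, had 248.2 at the lowest, 397 at the median and 618.6 at the highest in EOM, and 59.0, 200 and 479.9 in TA. Its EOM arrays were mostly the higher ones and the groups overlapped through TA 2 and TA 3, giving 0.98 ± 0.37 (SE, limma adjusted p = 0.126). It passed without TA 3 alone, at 1.22 (limma adjusted p = 0.0335), and on all 12 arrays with a covariate for the beta-actin ratio, at 1.27 (limma adjusted p = 0.00301). In those fits 11.0% and 14.8% of all tested genes passed. These values are of 1441910_x_at, which may not measure Ccne1 alone. The further tested Ccne1 probe set, 1416492_at, was at 0.70 (limma adjusted p = 0.301), with 29.4 to 192.6 in EOM and 43.3 to 98.1 in TA. Cyclin E2 (Ccne2) was at 0.35 (adjusted p = 0.692), and E2f1, the transcription factor that drives these genes, at -0.011 (adjusted p = 0.994). Gins2, a subunit of the GINS complex that activates the helicase, was at 0.82 ± 0.36 (SE, limma adjusted p = 0.209), with 23.1 to 88.0 in EOM and 7.7 to 37.5 in TA.

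The values of Cdc6 and Pcna changed with the array EOM 1 and with the covariate for the beta-actin ratio. Cdc6 had 11.9 at the lowest, 176 at the median and 228.7 at the highest in EOM, and 76.9, 94.7 and 156.6 in TA. The value of 11.9 was on EOM 1, and the other 5 EOM arrays, at 158.8 or more, were above every TA array. The share of all genes that separate in this way without EOM 1 was not counted. With all arrays the log2 fold change was 0.28 ± 0.43 (SE, limma adjusted p = 0.821), and without EOM 1 it was 0.76 (limma adjusted p = 0.0327). Without EOM 1, 20.5% of all tested genes passed. Pcna, the clamp that holds polymerase on DNA, had 86.4 at the lowest, 2195 at the median and 2767 at the highest in EOM, and 458.2, 1067 and 2394 in TA. Its lowest value was again EOM 1, and the groups overlapped with and without it. The log2 fold change was 0.29 ± 0.66 (SE, limma adjusted p = 0.890), and 1.04 without EOM 1 (limma adjusted p = 0.0333), but 0.66 without EOM 1, TA 3 and TA 5 together (limma adjusted p = 0.0858). On all 12 arrays with the covariate, Cdc6 was at 0.057 (limma adjusted p = 0.952) and Pcna at -0.29 (limma adjusted p = 0.737).

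The enzymes that make deoxynucleotides did not pass. Rrm1, the large subunit of ribonucleotide reductase, was at 0.38 (limma adjusted p = 0.40), with 251.4 to 452.2 in EOM and 226.7 to 324.8 in TA. Rrm2, its small subunit and the one made mainly in S phase, was at -0.47 (limma adjusted p = 0.626). Its EOM arrays lay between 190.4 and 256.4, inside a TA range of 81.5 to 1187 whose top was TA 3. These values are of 1434437_x_at, which may not measure Rrm2 alone. The further tested Rrm2 probe set, 1448226_at, was at -0.15 (limma adjusted p = 0.926), with 8.0 to 101 in EOM and 7.1 to 139.9 in TA. Tyms was not tested, with 8.1 to 134.7 in EOM and 2.3 to 63.8 in TA.

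**Figure D3:**
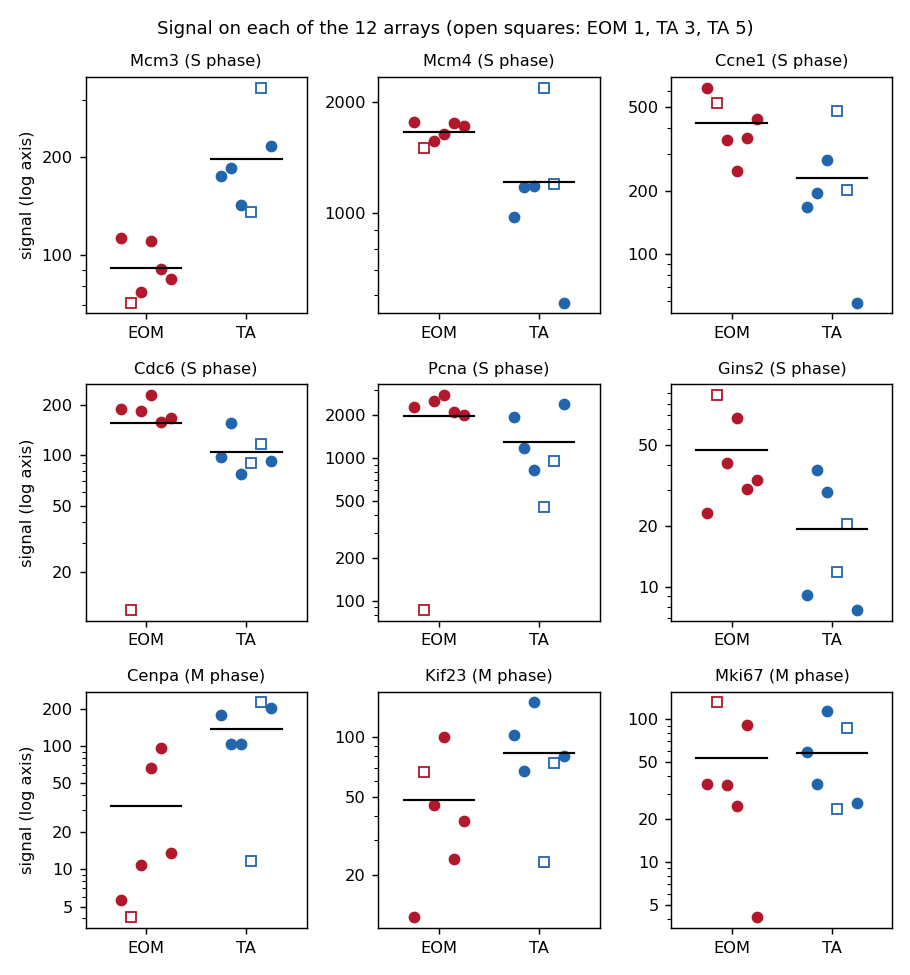
Signal (log axis) of 9 members on the 6 EOM (red) and 6 TA (blue) arrays, each panel with its own scale, the group mean as a bar and open squares for EOM 1, TA 3 and TA 5. Mcm3 does not overlap, Mcm4 overlaps through TA 3, and the lowest Cdc6 and Pcna values are EOM 1.

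In the M phase genes the arrays of each muscle scattered widely, and 0 of 13 passed with limma, with 1 at an unadjusted p under 0.05. That gene was Cenpa, the histone H3 variant that marks centromeres. It had 4.1 at the lowest, 12.2 at the median and 96.2 at the highest in EOM, and 11.6, 141 and 225.6 in TA. By array the EOM signals were 5.6, 4.1, 10.8, 66.4, 96.2 and 13.5, and the TA signals were 178.1, 103.7, 103.1, 11.6, 225.6 and 201.4, for replicates 0, 1, 2, 3, 5 and 6. All 6 EOM arrays were below 5 of the TA arrays, and TA 3 fell among the EOM values.

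For Cenpa the log2 fold change was -1.72 ± 0.54 (SE, limma adjusted p = 0.0608). It passed without EOM 5 (-2.03, limma adjusted p = 0.0277) or without TA 3 (-2.16, limma adjusted p = 0.00566), and not in the 10 other fits that left out 1 array. Of all tested genes, 9.21% passed without EOM 5 and 11.0% without TA 3. On all 12 arrays it passed with the 3' to 5' covariate (-2.02, limma adjusted p = 0.00821), with array weights (-1.86, limma adjusted p = 0.00214) and with an added constant of 64 (-1.02, limma adjusted p = 0.0495). In those fits 14.8%, 25.0% and 11.1% of all tested genes passed. A further tested Cenpa probe set was at -0.13, with 4.5 to 82.7 in EOM and 6.0 to 70.4 in TA, where the groups overlapped.

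Motor proteins and spindle factors gave mostly small negative values. Kif23, a kinesin of the central spindle in cytokinesis, was at -0.66 (limma adjusted p = 0.397), with 12.2 to 100.8 in EOM and 23.2 to 150.7 in TA. Kif11, the kinesin that pushes spindle poles apart, was at -0.47 (adjusted p = 0.594), and the microtubule-binding Tpx2 and Nusap1 at -0.22 and -0.17. Cdca8, a subunit of the chromosomal passenger complex, was at -0.087.

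Among kinases, cyclins and checkpoint genes, Aurka was at 0.052, Plk1 at -0.20, Ccna2 at 0.042 and the checkpoint kinase Bub1b at -0.29. Cdc20, which turns on the anaphase-promoting complex, had 170.4 to 510.8 in EOM and 92.8 to 432.5 in TA, with a log2 fold change of 0.32 (limma adjusted p = 0.704). These values are of 1439377_x_at, which may not measure Cdc20 alone. The further tested Cdc20 probe set, 1416664_at, was at -0.071 (limma adjusted p = 0.934). The general markers of cycling cells did not pass either. Mki67 had 4.1 at the lowest, 34.7 at the median and 131 at the highest in EOM, and 23.5, 46.9 and 114.4 in TA, with a log2 fold change of -0.23 ± 0.46 (SE, limma adjusted p = 0.874). Top2a, which untangles sister chromatids, had 35.3 to 79.0 in EOM and 28.8 to 113.8 in TA and a log2 fold change of -0.054 ± 0.31 (SE, limma adjusted p = 0.965). For both genes the groups overlapped over most of their range. A further tested Top2a probe set, 1454694_a_at, was at -0.52 (limma adjusted p = 0.450), with 10.5 to 63.6 in EOM and 24.9 to 86.4 in TA.

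The M phase genes left untested were Aurkb, Birc5, Bub1, Ccnb2, Cdk1, Cenpe and Kif20a. Among them are the mitotic kinase Cdk1, its partner cyclin B2 and the passenger complex members Aurkb and Birc5. Their brightest probe sets had a mean log2(signal + 16) under the filter of 5.42, and signals ran from 1.1 to 79.5 in EOM and from 1.9 to 58.8 in TA. Ccnb2 had a mean of 42.2 ± 24.9 in EOM and 16.9 ± 11.1 in TA, and Cdk1 12.2 ± 6.15 and 19.2 ± 17.8 (SD, n = 6). Their groups were not compared further.

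Averaged over a class, arrays of 1 muscle differed among themselves more than the muscles did. The class level of an array was the mean over its genes of log2(signal + 16) minus each gene's mean. For M phase it was -0.58 at the lowest, on EOM 0, and 0.41 at the highest, on EOM 1, within EOM, with a group mean of -0.14 ± 0.42. In TA it ran from -0.34 on TA 6 to 0.64 on TA 2, with a group mean of 0.14 ± 0.38 (SD, n = 6). The S phase level was 0.047 ± 0.18 in EOM, lowest on EOM 1 at -0.30, and -0.047 ± 0.25 in TA, lowest on TA 6 at -0.52 (SD, n = 6). EOM 1 thus had the lowest S phase level and the highest M phase level of its group. It held the highest signal for 9 and the lowest for 6 of the 27 members, and the highest for 3420 and the lowest for 3085 of all 13067 tested genes.

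**Figure D4:**
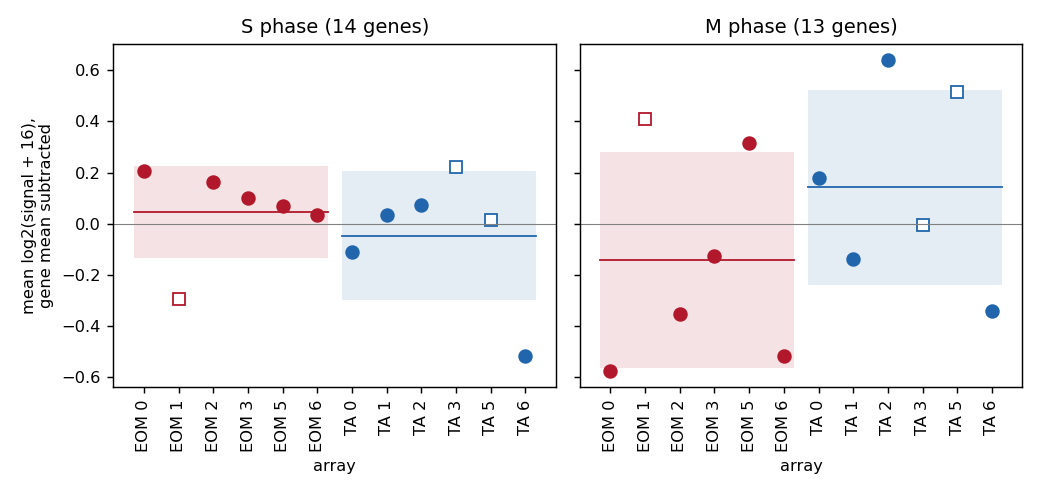
Mean log2(signal + 16), with each gene's mean subtracted, of the 14 S phase (left) and 13 M phase genes (right) on each array, with lines for group means and shading for 1 SD (n = 6). Open squares are EOM 1, TA 3 and TA 5, and the shaded bands of EOM (red) and TA (blue) overlap in both classes.

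The number of calls changed with the arrays used. Without TA 5 alone 0 of 27 members passed with limma, against 8.60% of all genes. The count was also 0 without EOM 2 (7.71% of all genes), EOM 6 (8.54%), TA 1 (8.84%) or TA 6 (9.36%), none an array of high median signal. Without TA 3 alone 3 passed (11.1%: Ccne1 higher, Cenpa and Mcm3 lower), against 11.0%. Without EOM 1, 3 of 27 members passed (11.1%: Cdc6 and Pcna higher, Mcm3 lower), against 20.5% of all genes. Without EOM 1, TA 3 and TA 5, 6 of 27 passed (22.2%), against 21.8% of all genes. Those were Ccne1 (1.22), Cdc6 (0.76) and Mcm4 (0.84), higher, and Cenpa (-1.84), Kif23 (-1.07) and Mcm3 (-0.82), lower. With array weights in the fit, 5 passed (18.5%), against 25.0% of all genes: Ccne1, Cdc6 and Mcm4 higher, and Cenpa and Mcm3 lower. With the covariate for the 3' to 5' ratio 3 passed (11.1%: Ccne1 higher, Cenpa and Mcm3 lower), against 14.8% of all genes. In the fits without EOM 1 or the 3 arrays, with weights and with the covariate, the members' share was near or below the background.

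The wider replication and mitosis machinery was described with lists drawn up by role. Of 53 other DNA replication genes 47 were tested, with a median of -0.062. In EOM 1 was higher (2.13%) and 3 were lower (6.38%), against 4.05% and 6.81% of all tested genes. Timeless, a protein of the replication fork, had 11.3 at the lowest, 107 at the median and 163.4 at the highest in EOM, and 836.7, 1085 and 1424 in TA. Every EOM array was far below every TA array, where 4.80% of all tested genes had every EOM array below every TA array. The log2 fold change was -3.45 ± 0.37 (SE, limma adjusted p = 8.69e-06). Its further probe set was under the filter, at 1.9 to 23.6 in EOM and 22.0 to 79.7 in TA.

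Dnmt1, which restores methylation after replication, was at -1.24 ± 0.37 (SE, limma adjusted p = 0.0461), and Dtl, which directs the destruction of licensing factors in S phase, at 1.70 ± 0.45 (SE, limma adjusted p = 0.0219). Dnmt1 lost the call without EOM 0, 2, 3, 5 or 6 or TA 2, 3 or 5 (limma adjusted p up to 0.112), and passed in 10 of 24 alternative fits in all, quantile normalization (0.118) being among those that ended the call. Dtl lost it without EOM 0, 2, 3, 5 or 6 or TA 6 (limma adjusted p up to 0.0602) and with median centring (0.0665), and passed in 17 of 24. With the mean of the tested probe sets, Dtl was at 0.94 (limma adjusted p = 0.0401) and Dnmt1 at -0.98 (limma adjusted p = 0.0503).

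Of 81 other mitosis genes 47 were tested, with a median of -0.023. In EOM 1 was higher (2.13%) and 1 lower (2.13%), against 4.05% and 6.81% of all tested genes. Espl1, the separase that cuts cohesin at anaphase, was at 85.9 to 134.1 in EOM and 3.1 to 51.0 in TA, with no overlap (2.33% of all tested genes had every EOM array above every TA array), and a log2 fold change of 1.33 ± 0.33 (SE, limma adjusted p = 0.0162). It passed in all 24 alternative fits, as did Timeless. Cenpt, a protein of the inner kinetochore, was at -0.97 ± 0.29 (SE, limma adjusted p = 0.0487) and lost the call without EOM 0, 2, 3 or 5 or TA 1, 2, 3, 5 or 6 (limma adjusted p up to 0.103). It passed in 8 of 24 alternative fits, and median centring gave a limma adjusted p of 0.265. Of 30 genes of the G1 cyclins, pocket proteins and E2F factors 28 were tested, and 0 passed with limma, with a median of -0.0023 and 5 at an unadjusted p under 0.05 (17.9%, against the 23.6% of all genes). The genes that passed in these lists thus lay on both sides, and the lists' medians were within 0.062 of 0. The lists' shares past the threshold were near or below those of all tested genes.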

How the data were processed

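Total RNA of 6 EOM and 6 TA side population preparations was hybridized to Affymetrix mouse arrays after linear amplification, per the labels' protocols. The authors deposited 1 signal intensity per probe set and array, on a linear scale, and the submitters' processing notes name MAS5. Trimmed by 2% at both ends, the mean was 150 on every array, so the deposited intensities were already scaled. No 2 arrays held identical values. An array has no read depth, and the 6 arrays per group limit the precision.

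Of 45101 probe sets, 64 controls were removed, and 34945 of the rest had 1 gene symbol in the platform annotation. Signals were taken as log2(signal + 16), the dimmest 40% of probe sets by mean were not tested, and 27022 were fitted with limma 3.58.1 in R 4.3.3 (intensity trend, two-sided, Benjamini-Hochberg over all tested probe sets, threshold 0.05). A gene was its probe set with the highest mean, giving 13067 genes. The fit was tested on simulated data. Promoters came from RefSeq (GRCm38.p6). For the array, no genome build is used here.

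The members and lists were chosen with earlier results of these data known. Values by array are given for members past the threshold or with a log2 fold change of at least 1 in size, other members by range with a few named by role, and up to 4 genes past the threshold from each pathway list, of which 1 is not reported here. Alternatives changed the added constant (1 or 64), the scaling between arrays, the filter and the intensity trend, and added array weights, a replicate block or a covariate for the 3' to 5' ratio, and changed the probe sets per gene and the arrays used.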

Additional observations from a re-analysis of the deposited data

Results flagged for a closer look

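In 6 of 54 sets of 6 values (27 members in each muscle), 1 array stood apart from the other 5 by Dixon's criterion, which chance meets in about 1 of 20 sets. Of these, 4 were on EOM 1. Cdc6 was at 11.9 there, against 158.8 to 228.7 on the other EOM arrays, and Pcna was at 86.4, against 2011 to 2767. Mcm7 was low on the same array, at 183.3 against 426.6 to 649. Plk1 was high on it, at 221.3 against 5.6 to 29.5, so that EOM 1 was extreme in both directions. On TA 3, Cenpa was at 11.6, against 103.1 to 225.6 on the other TA arrays. On EOM 5, Mcm6 was at 543.7, against 336.3 to 401.2 on the other EOM arrays. EOM 1 and TA 3 had the highest median signal and 3' to 5' beta-actin ratios, and the part of these in the single values was not tested.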

How the results depend on the processing

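The medians of S phase (0.020 to 0.28) and M phase (-0.37 to -0.037) kept their sign in every alternative. The count of members past the threshold, 1 in the main setting, was 2 with a constant of 64, 0 with quantile normalization, median centring, no level filter or the mean of probe sets, 3 with the 3' to 5' covariate, 5 with array weights, 6 without EOM 1, TA 3 and TA 5, and 0 to 3 with each array left out. The count over all genes, 1419, was 904 with median centring, 3264 with array weights, 2853 without the 3 arrays and 1008 to 2675 with each array left out. Both groups carry the same replicate numbers, and whether same-numbered preparations were made together was not tested. Deviations of same-numbered arrays correlated between -0.32 and 0.16, and EOM 0 alone matched its own number best. With the replicate block, 0 members (Mcm3 adjusted p = 0.0874) and 1049 genes passed in limma, and Dnmt1 (0.116) and Cenpt (0.107) lost the call.

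Mcm3 passed in 13 of 24 alternatives. Several members changed sign, none of them called with all arrays in the main setting, and most of them were near 0 there (Mcm7 was at -0.56, Rrm2 at -0.47). Without EOM 1, TA 3 and TA 5 the log2 fold changes were 0.14 for Cdca8, 0.042 for E2f1, -0.010 for Mcm2, -0.14 for Mcm5, 0.060 for Mcm7 and 0.046 for Rrm2. With the covariate they were 0.22 for Cdca8, 0.35 for E2f1, -0.29 for Pcna, 0.13 for Plk1 and 0.13 for Tpx2. Array weights gave -0.028 for Ccna2, 0.0038 for Cdca8 and -0.19 for Mcm5. Median centring gave 0.0061 for Cdca8, 0.083 for E2f1 and 0.040 for Top2a, and quantile normalization 0.044, 0.11 and 0.054 for the same genes. The constant gave 0.35 for Cdca8 (1) and 0.020 for E2f1 (64), and the mean of probe sets -0.14 for Mcm2 and 0.079 for Tpx2. With each array left out, values ran from -0.10 to 0.23 for Aurka, -0.18 to 0.25 for Ccna2, -0.45 to 0.19 for Cdca8, -0.33 to 0.29 for E2f1, -0.11 to 0.20 for Mcm2, -0.076 to 0.11 for Mcm5, -0.50 to 0.071 for Mki67, -0.45 to 0.049 for Nusap1, -0.67 to 0.021 for Plk1, -0.21 to 0.10 for Top2a and -0.68 to 0.021 for Tpx2. The cause of these changes was not tested. Low signal limits most M phase genes, of which 7 were not tested.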
